A study of Mus musculus with 4 samples.

Results

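The genes described here are the interferon regulatory factors Irf1, Irf2, Irf3, Irf4, Irf5, Irf7, Irf8 and Irf9 and the IRF2-binding corepressors Irf2bp1 and Irf2bp2, 10 of the 21951 protein-coding genes (55450 genes in all) in the annotation. They were chosen by name, and a peak was given to a gene when its summit lay in an exon of that gene. This rule placed 11 of the 15635 peaks of replicate 1 and 12 of the 14872 peaks of replicate 2 in these genes.

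m6A-seq was performed on mouse c-Kit+ hematopoietic cells to find the transcripts that the m6A reader YTHDF2 could bind. Per the labels, the cells came from the foetal liver of C57BL/6 mice and were enriched for Kit with magnetic beads, and of the 4 samples 2 are m6A immunoprecipitation (IP) samples and 2 are their inputs, with replicates numbered 1 and 2. Per the methods, the cells were those of Ythdf2 CTL (Ythdf2 fl/fl) animals, whose Ythdf2 allele carries loxP sites around an exon and a GFP fusion and which have no Cre, so both replicates, which the methods call biological, share this genotype and the files used here hold no Ythdf2-deficient group. The embryonic stage is not given in the labels, and the enriched cells are a mixture of stem and progenitor cells with whatever else the beads retained. In a bulk sample such as this, fewer cells of a type and less RNA per cell cannot be told apart.

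Interferon regulatory factors are transcription factors that share an amino-terminal DNA-binding domain and bind interferon-stimulated response elements in the promoters of interferons and of the genes that interferons induce. IRF3, IRF5 and IRF7 act downstream of sensors of nucleic acids, IRF9 joins STAT proteins below the interferon receptors, IRF1 and IRF2 act as activator and antagonist on many of the same promoters, and IRF4 and IRF8 direct lymphoid and myeloid differentiation together with ETS and AP-1 partners. m6A is a methyl group added to adenosine within mRNA, most often in the sequence GGAC or a close relative of it and most densely around the stop codon and in long exons, and YTHDF2 binds it and recruits the machinery that removes the poly(A) tail.

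The sequences at the summits are shown first because they carry the position of each peak and the candidate methylation sites under it. Each run is the sense strand of GRCm38, 5′ to 3′, taken from a single exon. Each run has 1 word in capitals, and any other copy of that word is in lower case. This is the GGAC nearest to the summit of at least 1 replicate, where it lay within 50 nt. Where it did not, capitals mark the nearest 5-base DRACH word, which is an A, G or T, then an A or G, then AC, then an A, C or T. Neither word was observed as a methylated site, since the peaks do not resolve single bases.
Irf1, 5′ UTR, chr11:53770065-53770094, plus strand: cttcgtcgaggtaGGACgtgctttcacagt
Irf5, 3′ UTR, chr6:29536808-29536837, plus strand: cttggacctcctgGGACagccacgtagact
Irf9, 5′ UTR, chr14:55603879-55603908, plus strand: ttttcccatcatTGACTtcggctgctctgt
Irf9, 3′ UTR, chr14:55609352-55609381, plus strand: cctcccagtcccAAACTctaaatctaagca
Irf4, 3′ UTR, chr13:30763833-30763862, plus strand: ttgacaagtgccaGGACttgggtgactgtg
Irf8, 3′ UTR, chr8:120755731-120755760, plus strand: attgattcacacAGACTctgtgtcagctga
Irf2bp1, coding sequence, chr7:19005038-19005067, plus strand: agcagaggaatgcGGACtgcttggcagaac
Irf2bp2, coding sequence of exon 1, chr8:126593331-126593360, minus strand: gggccatgatctgGGACttcacggagcccg
Irf2bp2, coding sequence of exon 1, chr8:126592948-126592977, minus strand: aacgggttctccAAACTggaggagccgccg
Irf2bp2, coding sequence of exon 1, chr8:126592587-126592616, minus strand: cgcccggggagcaGGACtgggccagcaggc
Irf2bp2, coding sequence of exon 2, chr8:126591411-126591440, minus strand: cggcagcaccggaGGACtggagccggtgca

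A summit in an exon was found for 6 of the 10 genes in replicate 1, for 7 in replicate 2 and for 6 in both, namely Irf1, Irf5, Irf8, Irf9, Irf2bp1 and Irf2bp2. Irf4 had a peak in replicate 2 alone. Irf2, Irf3 and Irf7 had no exonic summit in either replicate. Over all protein-coding genes the share with an exonic summit was 34.4% in replicate 1, 33.5% in replicate 2 and 30.9% in both, and these shares include genes that the cells do not express. No test was run on these counts, since the genes were named with results of these data known. The plot of fold enrichment by peak shows the values of each gene.

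**Figure D1:**
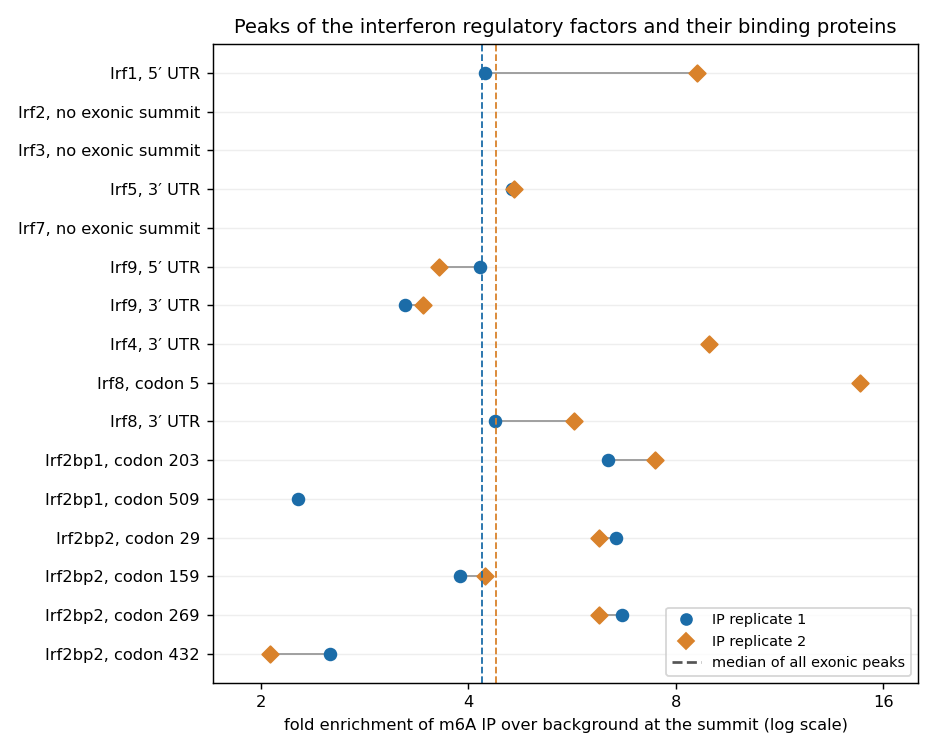
Fold enrichment of m6A IP over background at the summit (x axis, log scale) for each peak of the 10 genes, with circles for IP replicate 1, diamonds for IP replicate 2, a line joining overlapping peaks and dashed lines at the median of all exonic peaks of each replicate (4.18 and 4.39). Rows without a symbol are genes with no exonic summit, and the peak of Irf8 at codon 5, called in replicate 2, is the highest at 14.8.

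The fold enrichment that MACS2 wrote for each peak is the ratio of IP signal to background at the summit. Over the peaks of these genes its median was 4.23 in replicate 1, with a range of 2.26 to 6.68, and 5.94 in replicate 2, with a range of 2.06 to 14.8. The medians of all exonic peaks were 4.18 and 4.39. Of the members' peaks, 6 of 11 in replicate 1 and 8 of 12 in replicate 2 lay above the median of their replicate. IP reads at a summit are the sequenced fragments extended by the caller over that base. Their whole number was worked out from the fold and p-value in the lists. Control reads are the background at the summit in units of 1 control read. A value that is not whole is not a count of control reads at that base. The members' peaks rested on a median of 73 IP reads in replicate 1 and 67 in replicate 2, over medians of 16.4 and 13.3 control reads, against 68 over 17 and 66 over 13 for all exonic peaks.

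All 6 peaks of Irf2bp1 and Irf2bp2 in replicate 1 and all 5 in replicate 2 lay in coding sequence, whereas the 5 peaks of the factors in replicate 1 lay in UTRs, as did 6 of their 7 peaks in replicate 2. The exception is the peak of Irf8 at its start codon. Over all summits placed on a transcript, 56.4% in replicate 1 and 55.9% in replicate 2 lay in coding sequence, 10.8% and 11.2% in the 5′ UTR and 32.8% and 32.9% in the 3′ UTR, and 30.7% and 29.8% lay within 200 nt of the stop codon. Only 1 member summit in each replicate, that of Irf5, lay within 200 nt of a stop codon. The maps of the transcripts show these positions.

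**Figure D2:**
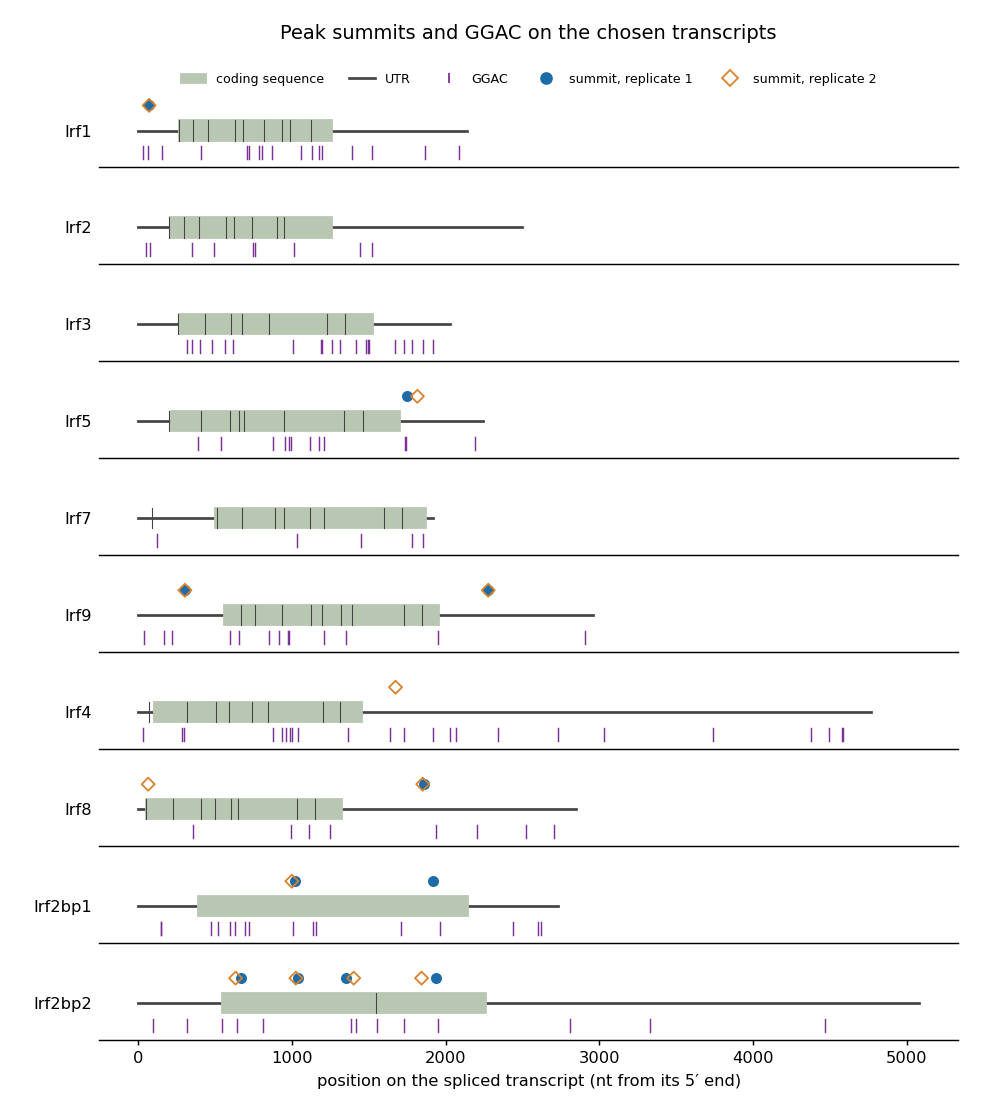
Spliced transcripts of the 10 genes drawn to scale (x axis, nt from the 5′ end), with boxes for coding sequence, lines for UTRs, vertical lines at exon junctions, ticks below for each GGAC, and summits above as filled circles (IP replicate 1) and open diamonds (IP replicate 2). The summits of Irf2bp1 and Irf2bp2 lie in coding sequence and those of the other genes in the first or the last exon, except that of Irf8 at its start codon, which is in exon 2 of 9.

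Irf1, an activator that interferon-γ induces, carried a small peak in its 5′ UTR (exon 1 of 10, 265 nt long). In replicate 1 it spanned chr11:53769989-53770235 with a fold enrichment of 4.23 and a −log10 q of 5.50, from 18 IP reads (95% exact Poisson interval 10.7 to 28.4) over 4 control reads. In replicate 2 it spanned chr11:53769989-53770214 with a fold enrichment of 8.59 and a −log10 q of 11.9, from 17 IP reads (9.90 to 27.2) over 1 control read. The IP reads were thus nearly equal, and the folds differed through the control reads. These intervals, like all those given below, cover counting error only.

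The summits in Irf1 lay 1 nt apart, at -197 nt from the start codon in replicate 1, in 2 of its 3 basic transcripts. The peak began 25 bp upstream of the annotated start of the gene in both replicates. The log2 difference in fold between replicates was 1.02, and 4.07% of the 9766 exonic peak pairs differed by more. The mean fold was 6.41 ± 3.08 (SD, n = 2), the widest spread of the 10 shared peaks compared below. GGAC stood 7 nt before the summit of replicate 1, in a window that held 2 copies of GGAC and 6 copies of GAAC, some of them in tandem as in this stretch of chr11:53770090-53770119, where capitals mark the GAACC nearest to the summit.
Irf1, 5′ UTR, plus strand: acagtctaagccGAACCgaaccgaaccgaa
At least 1 GAAC within 50 nt was present for 39.1% of all placed summits in replicate 1 and 39.3% in replicate 2.

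Irf2, which occupies the sites of Irf1 as an antagonist and is known for holding hematopoietic stem cells quiescent, had no summit in its exons, although its transcript has 9 copies of GGAC (3.60 per kb) and a last exon of 1545 nt. A peak of replicate 2 at chr8:46739175-46739537 had its summit 364 bp upstream of the gene, in an exon of Gm16675 on the opposite strand. It had a fold enrichment of 8.95 from 14 IP reads over 0.60 control reads and was not found in replicate 1.

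The factors below the nucleic acid sensors are Irf3, Irf5 and Irf7. Irf5, which induces inflammatory cytokines below MyD88, carried 1 peak in its last exon (780 nt) in each replicate. Fold enrichment was 4.63 in replicate 1 (chr6:29536731-29536936, 40 IP reads, 28.6 to 54.5, over 9 control reads) and 4.66 in replicate 2 (chr6:29536733-29537074, 35 IP reads, 24.4 to 48.7, over 6.36 control reads). The −log10 q was 13.1 and 10.9, both below the median of exonic peaks (16.1 and 15.8).

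The folds of Irf5 were the closest of all shared member peaks, with a mean of 4.64 ± 0.0244 (SD, n = 2), while the summits lay 66 nt apart, 46 nt past the stop codon in replicate 1 and 112 nt past it in replicate 2. GGAC stood 6 nt before the first of these summits and 72 nt before the second, so that the motif was within 50 nt in replicate 1 alone.

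Irf3 and Irf7, the factors that TBK1 activates and that induce type I interferon genes, had no exonic summit. The transcript of Irf3 has 20 copies of GGAC, or 9.85 per kb, more per kb than 98.8% of transcripts. The transcript of Irf7 with the longest coding sequence has 5 copies, or 2.61 per kb, with a 3′ UTR of 42 nt and no exon longer than 422 nt. These values are those of 1 transcript, which ends at chr7:141263183. The annotated gene, on the minus strand, reaches farther 3′, to chr7:141262706. Near Irf7, a peak of replicate 1 had its summit 231 bp beyond the 3′ end of the gene, in an exon of Phrf1.

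For Irf3 the lack of a peak depended on where its exons were taken to begin. In each replicate a peak of intron 1 ended within exon 2, with a fold enrichment of 3.86 in replicate 1 (77 IP reads over 22 control reads, −log10 q 19.8) and 3.13 in replicate 2 (68 over 20, −log10 q 11.9). The summits lay 53 and 42 bp before exon 2 of the basic transcripts, and within exons of longer models of both Irf3 and its divergent neighbour Bcl2l12 in the comprehensive set. The peak lists carry no strand, so this signal cannot be given to one gene or the other.

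Irf9, the DNA-binding subunit of the complex that type I interferon activates, carried 2 peaks in each replicate, 1 at each end of the transcript. In the 5′ UTR (exon 1, 673 nt) fold enrichment was 4.16 in replicate 1 (chr14:55603686-55604136, −log10 q 18.5, 65 IP reads over 17 control reads) and 3.62 in replicate 2 (chr14:55603718-55604221, −log10 q 12.4, 56 over 14). In the 3′ UTR (exon 10 of 10, 1110 nt) it was 3.24 (chr14:55608878-55609493, −log10 q 14.7, 73 over 25) and 3.43 (chr14:55608887-55609560, −log10 q 14.4, 71 over 19). Each of these folds was below the median of exonic peaks in its replicate.

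The summits of Irf9 were among the most closely placed, 3 nt apart in the 5′ UTR and 1 nt apart in the 3′ UTR. No GGAC lay within 50 nt of them. The nearest copy was 90 nt before the 5′ summit of replicate 1 and 323 nt before its 3′ summit, and the 3′ UTR of 999 nt has a single GGAC. The 5′ summit lay in 1 of 3 basic transcripts. The first exon of that transcript starts at chr14:55603571, before the annotated end of Rnf31 at chr14:55603693. Rnf31 is a ubiquitin ligase gene on the same strand, so the start of this exon overlaps it. It ends 186 bp before the summit of replicate 1 and shares 8 bp with that peak. The 3′ summit lay in all 3 transcripts.

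Irf4 and Irf8 are the lineage factors, Irf4 for B and T lymphocytes and plasma cells and Irf8 for monocytes and dendritic cells. Irf4 had a peak in replicate 2 alone, at chr13:30763740-30764174 in its last exon (3450 nt), 222 nt past the stop codon, with a GGAC 39 nt before the summit. Its fold enrichment of 8.95 was higher than that of 90.4% of exonic peaks, but it rested on 14 IP reads (7.65 to 23.5) over 0.60 control reads, the lowest background of any member peak. In replicate 1 the peaks with under 2 control reads rested on a median of 12 IP reads. The IP and control reads over Irf4 in replicate 1 are not known from its list.

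Irf8 carried 1 peak in both replicates and another in replicate 2 alone. The shared peak was in the 3′ UTR (exon 9 of 9, 1696 nt), spanning chr8:120754944-120755868 with a fold enrichment of 4.37 and a −log10 q of 19.9 in replicate 1, and chr8:120754944-120755867 with 5.70 and 26.9 in replicate 2. It rested on 66 IP reads (51.0 to 84.0) over 16.4 control reads and 72 IP reads (56.3 to 90.7) over 11.2 control reads. The mean fold was 5.03 ± 0.938 (SD, n = 2), and the summits, 10 nt apart, lay 536 and 526 nt past the stop codon.

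The nearest GGAC was 79 and 89 nt beyond these summits, and AGACT stood 36 and 46 nt beyond them. This summit lies in 1 of the 3 basic transcripts of Irf8, the one with the longer 3′ UTR.

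The other peak of Irf8, at chr8:120739692-120739935, had the highest fold of any peak of these genes. Its fold enrichment of 14.8 in replicate 2 was above that of 99.0% of exonic peaks, with a −log10 q of 27.6, from 30 IP reads (20.2 to 42.8) over 1 control read. The summit lay in codon 5, in exon 2, which is in all 3 basic transcripts. Of the 244 bp of this peak, 125 lay upstream of exon 2 in intron 1, and no GGAC lay in the exon under the peak. The exon starts 1 base before the start codon, shown in capitals in the first 30 bases of the exon.
Irf8, start of exon 2, chr8:120739817-120739846, plus strand: gATGtgtgaccggaacggcgggcggcggct
Replicate 1 had no peak that overlapped it.

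Irf2bp1 and Irf2bp2, nuclear proteins that bind the carboxy terminus of IRF2 and repress transcription, had the peaks with the highest −log10 q of the group in both replicates, though in replicate 2 not the highest fold. Irf2bp1 is a gene of a single exon (2734 nt, 584 codons). In replicate 1 it carried a peak of 1082 bp at chr7:19004380-19005461 with a fold enrichment of 6.37 and a −log10 q of 68.4, from 160 IP reads (136 to 187) over 27.8 control reads. A second peak in replicate 1, at chr7:19005572-19006159, had a fold enrichment of 2.26, from 92 IP reads (74.2 to 113) over 46 control reads.

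In replicate 2 a single peak of 1784 bp at chr7:19004371-19006154 covered both of these. It had a fold enrichment of 7.46 and a −log10 q of 68.2, from 148 IP reads (125 to 174) over 18 control reads. The −log10 q of the main peak was higher than that of 99.6% of exonic peaks in each replicate. The summits of the main peak lay in codon 210 in replicate 1 and codon 203 in replicate 2, on either side of the same GGACT, which stood 13 nt before the first and 9 nt past the second. The mean fold was 6.92 ± 0.776 (SD, n = 2), the highest of the shared member peaks.

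Irf2bp2, a relative with a longer transcript (5080 nt) and a 3′ UTR of 2817 nt, carried 4 peaks in each replicate. All lay in its 570 codons and none in the 3′ UTR. The first 3 lay in exon 1 (1547 nt) and the last in exon 2 (3533 nt). Nearest the 5′ end, at chr8:126593168-126593476, fold enrichment was 6.56 in replicate 1 (94 IP reads over 15.4 control reads, codon 40), and at chr8:126593184-126593480 it was 6.18 in replicate 2 (91 over 13.2, codon 29). The third peak was as strong, with 6.68 in replicate 1 (chr8:126592486-126592773, 97 over 15.7, codon 269) and 6.19 in replicate 2 (chr8:126592493-126592739, 93 over 13.5, codon 285). Between them the second peak was lower, with 3.89 (chr8:126592862-126593075, 56 over 15.6, codon 163) and 4.23 (chr8:126592852-126593089, 63 over 13.4, codon 159).

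The 2 strong peaks of exon 1 each had a GGAC within 50 nt in both replicates, and the weaker one had no GGAC within the peak. Elsewhere among the members, GGAC and fold did not always go together. In replicate 1, GGAC stood 16 nt past the exon 2 summit (fold 2.52) and 43 nt past that of the second Irf2bp1 peak (2.26). The start-codon peak of Irf8 in replicate 2 (14.8) had none within 50 nt. A link between GGAC and fold was not tested. The weak peak was the lowest of the 3 in both replicates, with mean folds of 6.37 ± 0.269 and 6.43 ± 0.344 for the strong peaks and 4.06 ± 0.240 for the weak one (SD, n = 2). The gap between the strong peaks and the weak one was larger than the spread between replicates, and that between the strong peaks was not.

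In exon 2 the peak of Irf2bp2 had the most IP reads of any member peak in each replicate, with the lowest fold in replicate 2 and the lowest but that of the second Irf2bp1 peak in replicate 1. It rested on 180 IP reads over 81 control reads in replicate 1 (chr8:126591099-126591915, fold enrichment 2.52, codon 462) and on 185 over 85 in replicate 2 (chr8:126590875-126591925, 2.06, codon 432). The background at its summit, in control reads, was thus over 5 times that at the summits of exon 1 of the same gene. There it lay between 13.2 and 15.7. None of these exon 1 values is a whole number, so the control reads at those summits themselves are not known. In replicate 2 the peak also overlapped 114 bp of Gm26759, a gene on the opposite strand. The plot of IP reads against control reads shows the exon 2 peak of Irf2bp2 at the upper right in each replicate. Irf1 lies at the lower left in each, and Irf4 does so in replicate 2, where alone it had a peak.

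**Figure D3:**
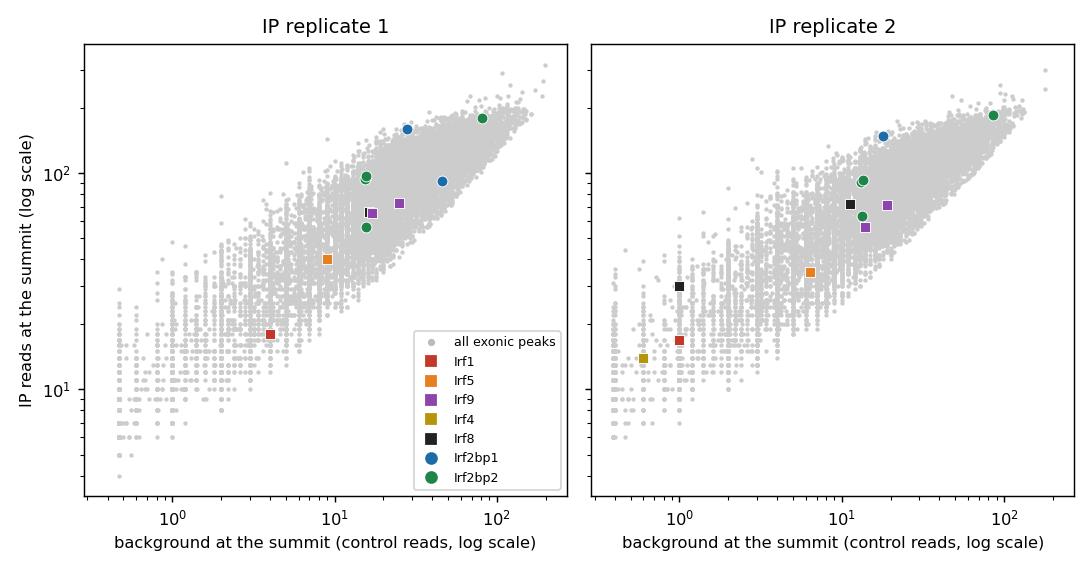
IP reads at the summit (y axis, log scale) against background at the summit in control reads (x axis, log scale) for all exonic peaks (grey) and for the members' peaks (coloured by gene, squares for factors and circles for Irf2bp1 and Irf2bp2), 1 panel per IP replicate. In replicate 2 the peaks of Irf4 and Irf1 and the start-codon peak of Irf8 rest on 0.60 to 1 control reads, and the exon 2 peak of Irf2bp2 on 85.

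Between replicates, all 11 member peaks of replicate 1 overlapped a peak of replicate 2, and 10 of the 12 of replicate 2 overlapped a peak of replicate 1, the exceptions being Irf4 and the start-codon peak of Irf8. Over all exonic peaks these shares were 84.2% and 86.8%. Taking the nearest summit where several overlapped gave 10 shared peaks. For 9 of them the log2 fold differed by less than 0.46, and Irf1 was the exception among the 10. The value of 0.46 is the SD of that difference over the 9766 exonic pairs. The summits of the 10 shared peaks lay 1 to 91 nt apart with a median of 16.5 nt, against a median of 16 nt for all exonic pairs. This pairing set aside the second Irf2bp1 peak of replicate 1. Its summit lay 918 nt from that of the overlapping peak, so the 2 folds belong to different sites. Their log2 difference of 1.72, which 0.297% of the pairs exceeded, is therefore not a difference between replicates at 1 site.

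**Figure D4:**
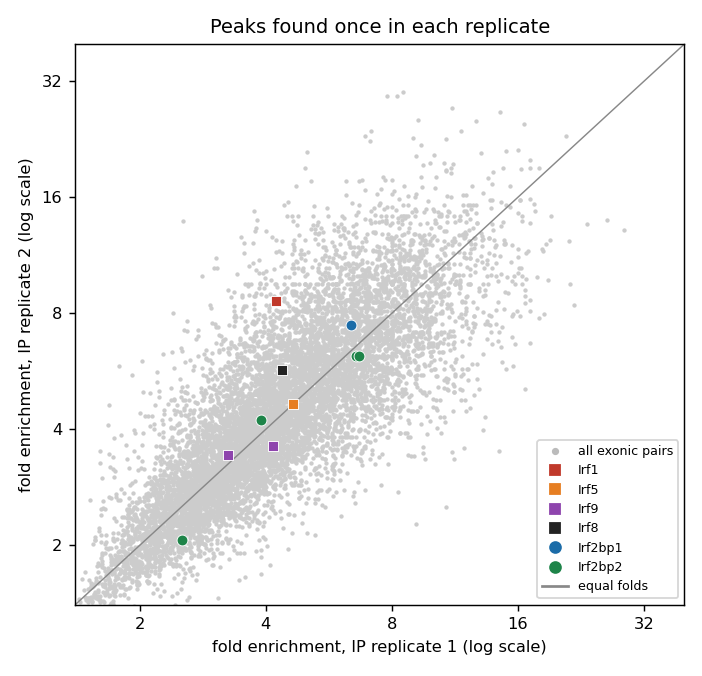
Fold enrichment in IP replicate 2 (y axis) against IP replicate 1 (x axis), both on a log scale, for exonic peaks found once in each replicate (grey) and for the 10 shared member peaks (coloured by gene), with a line at equal folds. Irf1 lies farthest from the line, at 4.23 and 8.59, and the other member peaks lie close to it.

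Ordered by the mean fold of each gene's shared peak with the highest −log10 q, Irf2bp1 came first, then Irf2bp2 (6.43 ± 0.344), Irf1 (6.41 ± 3.08), Irf8 (5.03 ± 0.938), Irf5 (4.64 ± 0.0244) and Irf9 (3.89 ± 0.385). The ranges of the 2 replicates overlapped between each gene and the next, except between Irf5 and Irf9. Neighbours in the order other than those therefore did not differ beyond their spread. By −log10 q the order was another one, with Irf2bp1 at 68.3 ± 0.157, Irf2bp2 at 40.7 ± 4.79, Irf8 at 23.4 ± 4.96, Irf9 at 15.4 ± 4.31, Irf5 at 12 ± 1.58 and Irf1 at 8.72 ± 4.55.

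GGAC lay within 50 nt of 7 of 11 member summits in replicate 1 and of 5 of 12 in replicate 2, beside 56.1% and 56.0% of all placed summits. It was near 5 of 6 and 3 of 5 summits of Irf2bp1 and Irf2bp2, and near 2 of 5 and 2 of 7 of the factors. On the antisense strand GGAC was found near 4 of 11 and 4 of 12, beside 27.6% and 27.9%. A DRACH word lay within 50 nt of every member summit, which was true of 93.3% of all placed summits in each replicate. The longer word GGACT was near 5 member summits in each replicate, beside 23.2% and 23.4% of all placed summits. The density of GGAC in the whole transcript did not order the genes by their peaks. Per kb, Irf3 (9.85) and Irf1 (7.96) had the most, and Irf2bp2 (2.56), with 4 peaks in each replicate, the fewest. By count, Irf4 (23) and Irf3 (20) had the most copies and Irf7 (5) the fewest. Of the 13 copies in Irf2bp2, 7 lay in the coding sequence, where its peaks were. Genes without a peak may lack reads, so a link between GGAC content and methylation was not tested.

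Outside the chosen genes, Irf2bpl is a single-exon relative of the corepressors. It carried a coding peak in both replicates, with a fold enrichment of 7.46 in replicate 1 (chr12:86881806-86882833, 26 IP reads over 3 control reads, codon 434) and 9.53 in replicate 2 (chr12:86881806-86882820, 29 over 2, codon 423). In replicate 2 it also carried a peak in the 5′ UTR, at chr12:86883958-86884280, with a fold enrichment of 5.26 and a −log10 q of 4.31 from 10 IP reads over 1 control read. A GGACT lay between the summits of the coding peak, and it is shown for comparison with the coding sites of Irf2bp1 and Irf2bp2.
Irf2bpl, coding sequence, chr12:86882604-86882633, minus strand: aggattgcatgaaGGACtttggccggggtc

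Genes that act around these factors were listed by role, and 26 of 35 had an exonic summit in both replicates and 8 in neither, beside the 30.9% of all protein-coding genes with one in both. Among interferon receptors 5 of 6 had one in both, led by Ifnar1 and Ifnar2, the subunits of the type I receptor. The strongest peak of Ifnar1 had a fold of 5.58 in replicate 1 and 5.76 in replicate 2, and that of Ifnar2 6.56 and 4.55. Among the kinases and transcription factors that the receptors use, 3 of 4 had one in both, including Jak1 (5.13 and 4.79) and Jak2 (6.02 and 3.94). Tyk2 had none.

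Upstream of Irf3, Irf5 and Irf7, 12 of 16 kinases and adaptors had a summit in both replicates. The strongest by −log10 q was Slc15a4, a lysosomal transporter needed for endosomal receptor signalling to Irf5, with a fold of 8.31 and 9.86 near its stop codon, followed by Traf6, a ubiquitin ligase below MyD88, with 5.37 and 5.35. Tbk1, Chuk and Irak4 had no exonic summit in either replicate. Of the DNA-binding partners of Irf4 and Irf8, 5 of 8 had one in both, with Batf, an AP-1 partner, at 7.04 and 10.1, and Spi1, the ETS factor PU.1, at 4.71 and 8.10. For Spi1 these are peaks near the stop codon in replicate 1 and near the start codon in replicate 2. No test was run on these lists.

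**Figure D5:**
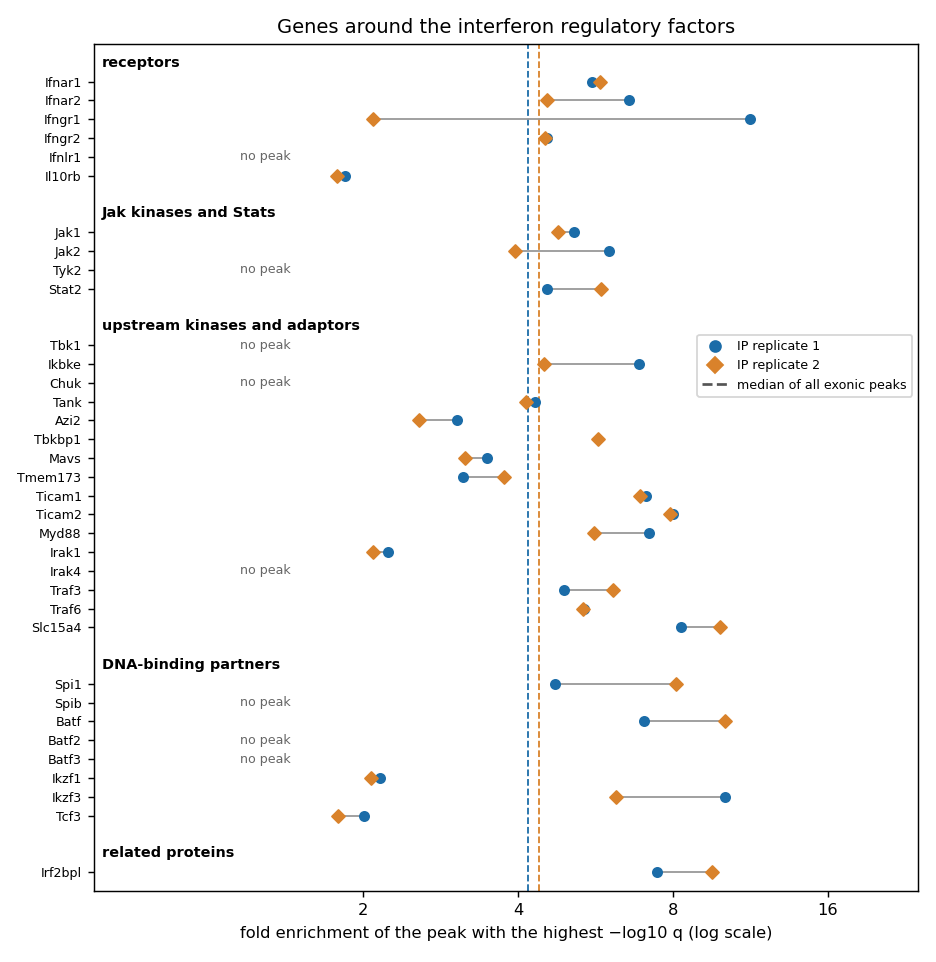
Fold enrichment (x axis, log scale) of the peak with the highest −log10 q of each of 35 genes around the interferon regulatory factors, by role, in IP replicates 1 (circles) and 2 (diamonds), joined by a line even where the strongest peak is another one in each replicate (Ifngr1, Spi1, Ikzf3), with dashed lines at the median of all exonic peaks (4.18 and 4.39). Slc15a4, Batf and Irf2bpl are among several genes to the right of both medians in each replicate, and 8 genes have no exonic summit. The medians are over all exonic peaks and not over the strongest peak of each gene.

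The cells were checked by peaks in marker genes, which need both expression and methylation. Of the stem and progenitor markers 7 of 9 had a summit in both replicates (Kit and Myb had none), against 4 of 7 erythroid, 2 of 7 macrophage (Csf1r and Vcam1), 3 of 8 hepatocyte and 1 of 6 endothelial markers, beside 30.9% of all protein-coding genes. Macrophages and their precursors are known to express Irf5 and Irf8, and the part of such cells in these peaks was not tested. Peak lists do not give the size of a library, so the depth behind a value is given here as the reads at its summit. For the genes without a peak, a lack of m6A and a lack of reads cannot be told apart. The strongest peaks of the globin genes Hba-a1 and Hbb-bt rested on 200 and 192 IP reads in replicate 1 and on 200 and 193 in replicate 2. The exon 2 peak of Irf2bp2 rested on 180 and 185. Whether summit reads level off in abundant transcripts, which could also hide a peak or lower its fold, was not tested.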

How the data were processed

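Reads of each m6A IP library were aligned by the authors with HISAT2 to GRCm38 (mm10), and peaks were called with MACS2 2.1.1.20160309 in nomodel mode, separately for each replicate. The control library, threshold and effective genome size are not given in the sources used here. The smallest −log10 q was 1.31 and 1.30, close to a q of 0.05. The deposited lists give, for each peak, the fold enrichment (a ratio of IP signal over background at the summit), the −log10 p and −log10 q values and a score that is the whole part of 10 times the −log10 q (100% of peaks). The input read data were not analysed here.

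Summits (peak start plus the deposited offset) were assigned to exons of the GENCODE M21 basic set, with 1-based coordinates. Positions are on the transcript with the longest coding sequence. Summits in the chosen transcript of exactly 1 protein-coding gene were called placed (10829 and 10464 of 12710 and 12204 exonic peaks). Peaks overlapping by at least 1 bp were shared. Motifs were searched on the spliced sense strand. IP and control reads were computed from the deposited fold and p-value under the formulas of MACS2. A whole number of IP reads, within 0.02, was found for 100% of peaks in each replicate, against 6.28% and 5.92% with the read unit moved by 0.8%, and the step was tested on simulated data. Python 3.11.15, NumPy 2.4.6 and SciPy 1.17.1 were used.

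With 1 group of 2 IP replicates no groups could be compared, and no test was run. All 10 members are named, plus the related Irf2bpl and, per role, up to 2 pathway genes with a summit in both replicates and the highest mean −log10 q. Some genes of the lists are not reported here and were left out of the counts. Genes counted as having no peak, and neighbouring genes, are named in addition. The members and lists were chosen with earlier results of these data known.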

Additional observations from a re-analysis of the deposited data

Results flagged for a closer look

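Peaks were listed in intron 1 of Irf3 in both replicates, outside the exons that the comparisons used. Their fold enrichment was 3.86 in replicate 1 and 3.13 in replicate 2, and each overlapped a peak of the other replicate. The values lay below the medians of exonic peaks (4.18 and 4.39). Whether this RNA comes from Irf3 or from Bcl2l12, which starts in the opposite direction there, cannot be told from peaks without strand.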

How the results depend on the processing

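The number of genes with an exonic summit in both replicates was 6 as reported, 7 when any overlap of a peak with an exon or the comprehensive transcript set was used, and 5 with a fold enrichment of at least 4. It stayed at 6 with a −log10 q of at least 3 or 5, and leaving out each replicate gave 6 to 7. The median fold over the peaks of both replicates was 4.63. It was 6.19 over the strongest peak of each gene, and 4.23 to 5.94 with each replicate left out. The share of member summits near the stop codon was 8.70% within 200 nt, 4.35% within 100 nt and 30.4% within 400 nt, and 8.33% to 9.09% with each replicate left out. Over all placed summits this share is given for 200 nt alone (30.7% and 29.8%), so the 30.4% within 400 nt has no value to be set beside. The share with GGAC nearby was 52.2% within 50 nt, 73.9% within 100 nt, 34.8% within 25 nt and 34.8% on the antisense strand, and 41.7% to 63.6% with each replicate left out. A wider window holds more of any word, and over all placed summits the share with GGAC was 76.0% and 76.1% within 100 nt and 34.4% and 35.0% within 25 nt. The share of member peaks found in the other replicate was 91.3%, and 75% among peaks with a fold of at least 4, where fewer peaks could overlap. In all, 29 of the 37 recomputed values stayed within the spread between replicates or within 1.5 times the count. Several of these could not move. The lowest −log10 q of a member peak was 5.50, so the filters at 3 and 5 removed none. No member summit lay in an exon of another gene, so leaving out such summits removed none either. Shares with a replicate left out were judged by a spread taken from the same replicates. The tally is therefore not a measure of robustness. No paired analysis was possible because there is 1 group of IP samples and the result comes from no test. The number of reads at a summit limits what Irf1, Irf4 and the start-codon peak of Irf8 can show.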

Other observations

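The peak of Irf4 and the peak upstream of Irf2 in replicate 2 have the same fold enrichment (8.95) and the same −log10 q (11.3). Both rest on 14 IP reads over 0.60 control reads.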
